A study of Mus musculus with 3 samples.

Results

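Molecular chaperones and folding enzymes were read in whole mouse ovaries with and without a conditional deletion of the clock gene Bmal1. The genes were taken by symbol: all array probes named Hsp, Dnaj, Cct2 to Cct8, Pdia or Fkbp in the scanner files, without Hspg2, which encodes a matrix proteoglycan. This gave 94 genes on 171 probes, of 41174 probes on the array. Of these genes 87 were tested among 17858 in all, each by its brightest probe. The 7 genes not tested were Hspb3, Hspb7, Dnajb7, Dnajb8, Dnajc5b, Dnajc5g and the pseudogene Hsp25-ps1, whose probes were not well above background in either channel on every array. Of the tested genes 86 exceeded background in cKO and control channels alike on each of the 3 arrays, and Hspa1l did so only in the cKO channel.

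The conditional knockout (cKO) females carried the floxed Bmal1fx/fx alleles and a Cre recombinase under the sf-1 promoter, which is active in steroid-producing cells. The control females carried the same floxed alleles without Cre (the labels call them wild type), so any effect of the floxed allele itself was shared by both groups. Only the cKO females carried Cre, so an effect of Cre itself cannot be told apart from the loss of Bmal1. All were C57Bl/6J females of 10 weeks, kept in 12 h of light and 12 h of dark, and killed at ZT12, 12 h after lights on, at 3.5 days post copulation. Each of 3 arrays compared a pool of 3 cKO ovary RNAs in cy3 with a pool of 3 control RNAs in Cy5, so that 9 females of each genotype were read as 3 pools. The dyes were never swapped, so dye and genotype cannot be told apart for any probe. Arrays 2 and 3 shared a slide and array 1 lay on another, and p-values measure only the spread between these pools.

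Values below are log2 ratios of cKO over control, so a value of 1 is a doubling and 0 is no difference, given as mean ± SD over arrays (n = 3). Array 1 and array 2 gave similar profiles (Pearson r = 0.601 across genes, which are not independent replicates), and array 3 stood apart from both (r = 0.213 with array 1 and 0.00875 with array 2). The targeted gene, Arntl, gave 0.27, 0.13 and -0.24 by its single probe, a mean of 0.06 ± 0.27. Which exons are lost on recombination is not given in the sources used here, so this probe checks nothing about the labels, and each direction below rests on the dyes they name. In whole ovary RNA, fewer cells of a type and less RNA per cell cannot be told apart. Markers of the labelled tissue were measured: all 8 luteal, 7 granulosa and 10 oocyte markers were tested, as were 4 of 5 theca markers.

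Chaperones bind proteins that are not yet folded, or have lost their fold, and keep them from clumping. HSP70 proteins work through cycles of ATP hydrolysis that DNAJ proteins start and nucleotide exchange factors such as HSP110 end, and HSP90 proteins take over late clients, among them the steroid hormone receptors. HSP60 with HSP10, and the CCT ring, enclose a client in a chamber. Protein disulfide isomerases (PDIA) and many FKBP prolyl isomerases fold secreted proteins in the endoplasmic reticulum (ER). Heat shock factor 1 drives many cytosolic chaperone genes through heat shock elements, and the unfolded protein response drives ER chaperones through ER stress elements.

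No chaperone gene passed the test. With limma's moderated test over all 17858 genes, 12 genes were higher and 19 lower at an adjusted p of 0.05, which is 0.0672% and 0.106% of those tested, and none of them was among the 87. At an unadjusted p of 0.05, 6 of the 87 chaperone genes were higher and 7 lower. Of all 17858 genes, 1054 (5.9%) were higher and 1147 (6.42%) lower. Both directions together made up 14.9% of the 87 genes, against 12.3% of all, an order that did not hold under every processing setting (given below). The smallest adjusted p of a chaperone gene was 0.253, for Fkbp6. The 95% interval reached a median of 0.40 to each side, with a range over genes from 0.32 to 1.08. For 76 of the 87 genes the interval excluded both a doubling and a halving. It did so for 15289 of the 17852 genes with a value on every array.

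The chaperones as a whole lay close to the centre of the arrays. The mean ratio was above 0 for 37 of the 87 genes and below 0 for 50 of them, against 8929 of 17858 genes (50%) below 0. Their median was -0.05, and by array it was -0.04, -0.10 and 0.01, beside 0.00 for the mean ratio of all genes. All 3 arrays were above 0 for 18 genes (20.7%) and below 0 for 22 (25.3%), against 17.5% and 17.8% of all genes. Single genes ranged from -1.11 to 0.76. A mean under -0.5 was found for 5 of the 87 chaperone genes and for 916 of 17858 genes in all (5.13%). A mean over 0.5 was found for 3 of the 87 and for 816 of 17858 in all (4.57%). The median SD between arrays was 0.26, and 0.28 over all genes.

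**Figure D1:**
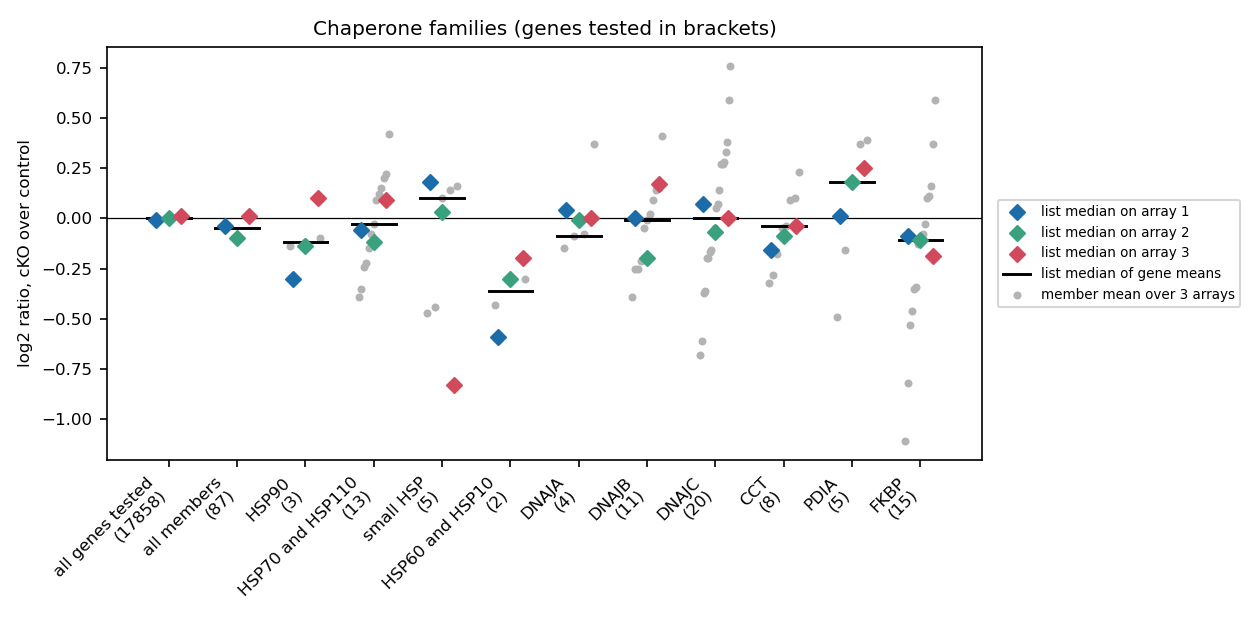
The log2 ratio of cKO over control (vertical axis) is shown for each chaperone family, with the number of genes tested in brackets: grey points are the means of single genes over 3 arrays, diamonds the family median on each array and bars the median of the gene means. The bars lie between -0.36 (HSP60 and HSP10) and 0.18 (PDIA), and the small HSP median on array 3 (-0.83) stands farthest from the other arrays.

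The mitochondrial chaperonin was the family with the lowest median. Hspd1, which encodes HSP60, gave -0.69, -0.38 and -0.22, a mean of -0.43 ± 0.24 (limma, unadjusted p = 0.0376, adjusted p = 0.371). Its second probe gave -0.52, -0.17 and -0.87. Hspe1, which encodes the HSP10 lid of the same chamber, gave -0.49, -0.22 and -0.18, a mean of -0.30 ± 0.17 (adjusted p = 0.474). Both genes were below 0 on every array by every probe measured, with array 1 lowest for the probes used, and neither passed the test. Hspa9, the mitochondrial HSP70, gave -0.32, -0.13 and -0.01, and its second probe had a mean of -0.61. Among mitochondrial DNAJ proteins, Dnajc15 of the inner membrane gave -0.63, -0.44 and -0.75, a mean of -0.61 ± 0.15 (adjusted p = 0.259). It was low on all arrays by nearly the same amount. Dnajc11 gave -0.29, -0.14 and -0.66. Dnaja3 gave -0.07, -0.03 and -0.14, and its second probe -0.26, 0.01 and -0.57. Dnajc19, a part of the import motor, gave -0.32, -0.86 and 0.57, and so had opposite signs on the 2 arrays of one slide.

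Hspd1 and Hspe1 are neighbours on opposite strands of chromosome 1. In the RefSeq promoter windows of GRCm38.p6, from 250 bases before to 50 after a start site, the Hspd1 start sites lie 95 and 216 bases from that of Hspe1, on the other strand. Only the farther start lies head to head with Hspe1. The window of the nearer start held no heat shock element. Between the Hspe1 start and the farther Hspd1 start lies a heat shock element, searched on both strands as GAA, TTC and GAA with any 2 bases between them, which was found in 4 of the 80 chaperone genes with a window (5%) and in 0.662% of 27025 genes. These sequences are shown because both genes of the lowest family read the same element, chr1:55088053-55088082, from opposite strands. The element of Hsph1 lies just after its start site (chr5:149636287-149636308, minus strand), and that of Dnajb6 before it (chr5:29735844-29735872, plus strand). Capitals mark the element.
Hspe1: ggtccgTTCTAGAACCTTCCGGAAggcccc
Hspd1: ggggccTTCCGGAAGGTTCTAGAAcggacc
Hsph1: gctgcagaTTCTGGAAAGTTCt
Dnajb6: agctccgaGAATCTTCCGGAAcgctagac
The 4 genes with the element had mean ratios from -0.43 to 0.09, with a median of -0.34. Hspd1 and Hspe1 were below 0 on all arrays, Hsph1 on arrays 1 and 2, and Dnajb6 on none. A match describes these letters only, and the promoters of Hsp90aa1, Hsp90ab1, Hspa8 and Fkbp10 were not analysed here.

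In the HSP90 family all 3 genes had means close to 0 that hid opposite values on single arrays. Hsp90aa1, the stress-inducible cytosolic form, gave -0.47, -0.66 and 0.82, a mean of -0.10 ± 0.81. Hsp90ab1, the constitutive cytosolic form, gave 0.28, 0.26 and -0.95, a mean of -0.14 ± 0.71. Arrays 1 and 2 therefore had less of the inducible and more of the constitutive transcript in the cKO channel, and array 3 the reverse of both. The second Hsp90ab1 probe had the same sign on each array, at 0.49, 0.68 and -0.70. With the scanner software's own ratios the mean of Hsp90aa1 was 0.12, on the other side of 0. Hsp90b1, the HSP90 of the ER, gave -0.30, -0.14 and 0.10, a mean of -0.12 ± 0.20, and its second probe was below 0 on all arrays with a mean of -0.36.

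The HSP70 and HSP110 genes spread evenly around 0: 6 of 13 had a mean above 0 and 7 below, with a median of -0.03. Hsph1, the inducible HSP110 that exchanges nucleotides on HSP70, gave -0.60, -0.74 and 0.18, a mean of -0.39 ± 0.50. It was low on arrays 1 and 2 and not on array 3, like Hsp90aa1. Hspa1a, the classical inducible HSP70, gave -0.64, -0.36 and -0.06, a mean of -0.35 ± 0.29 (adjusted p = 0.471). A second Hspa1a probe lay at 0.09, 0.28 and 0.59, above 0 on every array, so the probes of this gene disagreed. Hspa1b, a near-identical copy of Hspa1a with which a probe can share signal, gave -0.32, -0.12 and -0.22, and the values of both genes are uncertain for that reason. Hspa4, an HSP110-type exchange factor, was the highest of the family at 0.42, 0.13 and 0.71, a mean of 0.42 ± 0.29 (adjusted p = 0.412), and its other probes gave means of 0.29 and 0.18. Hspa8, the constitutive cytosolic HSP70, gave 0.07, 0.00 and 0.20, a mean of 0.09 ± 0.10. Its second probe had a mean of 0.59. Hspa5 (BiP), the HSP70 of the ER, gave 0.18, -0.11 and 0.52, a mean of 0.20 ± 0.32, and -0.01 with the scanner's own ratios.

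The small heat shock proteins, which hold unfolded proteins without ATP, had a median SD between arrays of 0.56 over the 5 tested genes, below the 0.71 of the HSP90 genes and above the 0.28 of all genes. Hspb1 (HSP25) gave 0.71, -0.78 and -1.33, a mean of -0.47 ± 1.06 (adjusted p = 0.724), the widest interval of any chaperone gene. Hspb8 gave 0.59, 0.67 and -0.83, a mean of 0.14 ± 0.85. Hspb2, a form best known from muscle, gave -0.24, -0.01 and -1.07, a mean of -0.44 ± 0.56. All 3 genes were lowest on array 3, although only Hspb1 was also low on array 2. Hspb9, best known from testis, gave 0.05, 0.03 and 0.41 and was highest on that array. Hspbap1, which encodes a protein that binds HSP25, gave 0.01, 0.12 and 0.81, a mean of 0.31 ± 0.43, and so was high on the array where Hspb1 was lowest. Smooth muscle markers also differed on array 3: the 7 genes (7 of 7 tested) had medians of 0.22, 0.90 and -1.05 on arrays 1 to 3, with means from -0.29 to 0.62. The 6 surface epithelium markers (6 of 6 tested) had medians of 0.89, -0.46 and -0.80, with means from -0.59 to 0.54. The median was also lowest on array 3 for the theca, endothelium, macrophage, fibroblast, erythroid, lymphocyte and adipocyte markers. It was not for the luteal, granulosa, oocyte and oviduct markers. The part of any cell type in the small heat shock protein values was not tested.

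**Figure D2:**
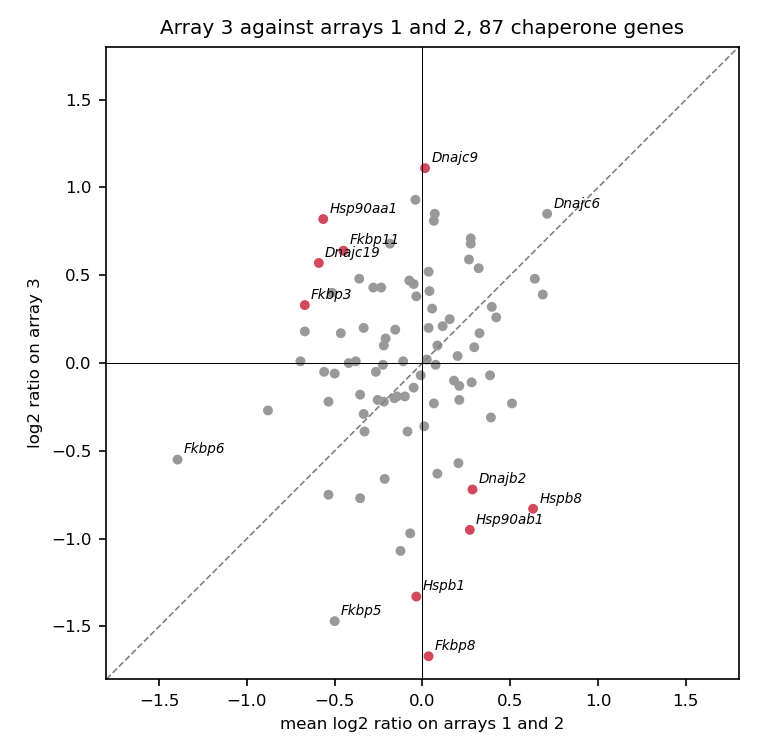
Each point is 1 of 87 chaperone genes, with its mean log2 ratio on arrays 1 and 2 on the horizontal axis and its ratio on array 3 on the vertical axis; the dashed line marks equal values. Red points are the 10 genes whose array 3 value lies over 1 from that mean; array 3 minus the mean was -1.71 for Fkbp8, -1.46 for Hspb8 and 1.39 for Hsp90aa1.

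Array 3 was apart for the chaperones about as often as for other genes. Its sign was opposite to both other arrays in 33 of 87 chaperone genes (37.9%), against 36.1% of all genes. Its value was over 1 from the mean of arrays 1 and 2 in 10 of them (11.5%, against 11.1% of all genes). Across the 87 genes, arrays 1 and 2 had a Pearson r of 0.71, arrays 1 and 3 of 0.108, and arrays 2 and 3, which share a slide, of 0.0916. These are correlations across genes, given as a description.

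DNAJ proteins bring clients to HSP70 and set its ATPase going, and with 35 tested genes they were the largest group. Of these, 16 had means above 0 and 19 below, with a median of -0.05. The DNAJC class, whose members share only the J domain, held both extremes of the group and had a median of 0.00 over 20 genes. Dnajc6 (auxilin), which with HSP70 strips clathrin from vesicles, was the highest of all chaperone genes, at 1.13, 0.29 and 0.85, a mean of 0.76 ± 0.43 (adjusted p = 0.296). Dnajc1, an ER membrane partner of BiP, gave 0.68, 0.69 and 0.39, a mean of 0.59 ± 0.17 (adjusted p = 0.266). Its other probes had means of 0.31 and -0.21. At the other end Dnajc12, a partner of aromatic amino acid hydroxylases, gave -0.83, -0.93 and -0.27, a mean of -0.68 ± 0.36 (adjusted p = 0.296). Dnajc6 and Dnajc12 kept their sign on all arrays, with the smallest Dnajc6 value on array 2 and the smallest Dnajc12 value on array 3. Dnajc9, a histone chaperone, had its mean of 0.38 ± 0.63 from array 3 alone (0.02, 0.01 and 1.11). Dnajc18 gave -0.04, 0.18 and 0.85, again highest on array 3.

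The DNAJA and DNAJB classes, which hold the general HSP70 partners, had medians of -0.09 (4 genes) and -0.01 (11 tested of 13). Dnajb1, the main HSP40 of the cytosol, gave 0.03, 0.20 and 0.21, a mean of 0.15 ± 0.10. Dnaja1 gave 0.35, 0.18 and 0.59, a mean of 0.37 ± 0.21 (adjusted p = 0.408). Its other probes had means of 0.36 and -0.61, the widest disagreement within a chaperone gene. Dnajb12, an ER membrane protein, gave 0.23, 0.32 and 0.68, a mean of 0.41 ± 0.24 (unadjusted p = 0.0421, adjusted p = 0.385), while its second probe had a mean of -0.26. Dnajb13, known from the sperm tail, gave -0.86, -0.26 and -0.05, a mean of -0.39 ± 0.42. Dnaja4 gave 0.16, 0.01 and -0.63 and was low only on array 3.

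The CCT ring, which folds actin and tubulin, showed small ratios on the whole, with a median SD of 0.23 between arrays. Its 8 genes had means from -0.32 to 0.23 with a median of -0.04. Cct6b, a form best known from testis, gave -0.41, -0.26 and -0.29, a mean of -0.32 ± 0.08 (adjusted p = 0.411). Its paralog Cct6a gave 0.35, 0.42 and -0.07, a mean of 0.23 ± 0.27. The lowest and the highest gene of the ring by these values thus code for alternative forms of a single subunit. Each was read by 1 probe. With the scanner's own ratios their means were -0.15 and 0.03, and neither was the outermost of the ring. Cct2 gave -0.46, -0.38 and 0.00, a mean of -0.28 ± 0.25, and its second probe 0.19, 0.45 and 0.74. Both Cct2 probes were highest on array 3, but they lay on opposite sides of 0.

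**Figure D3:**
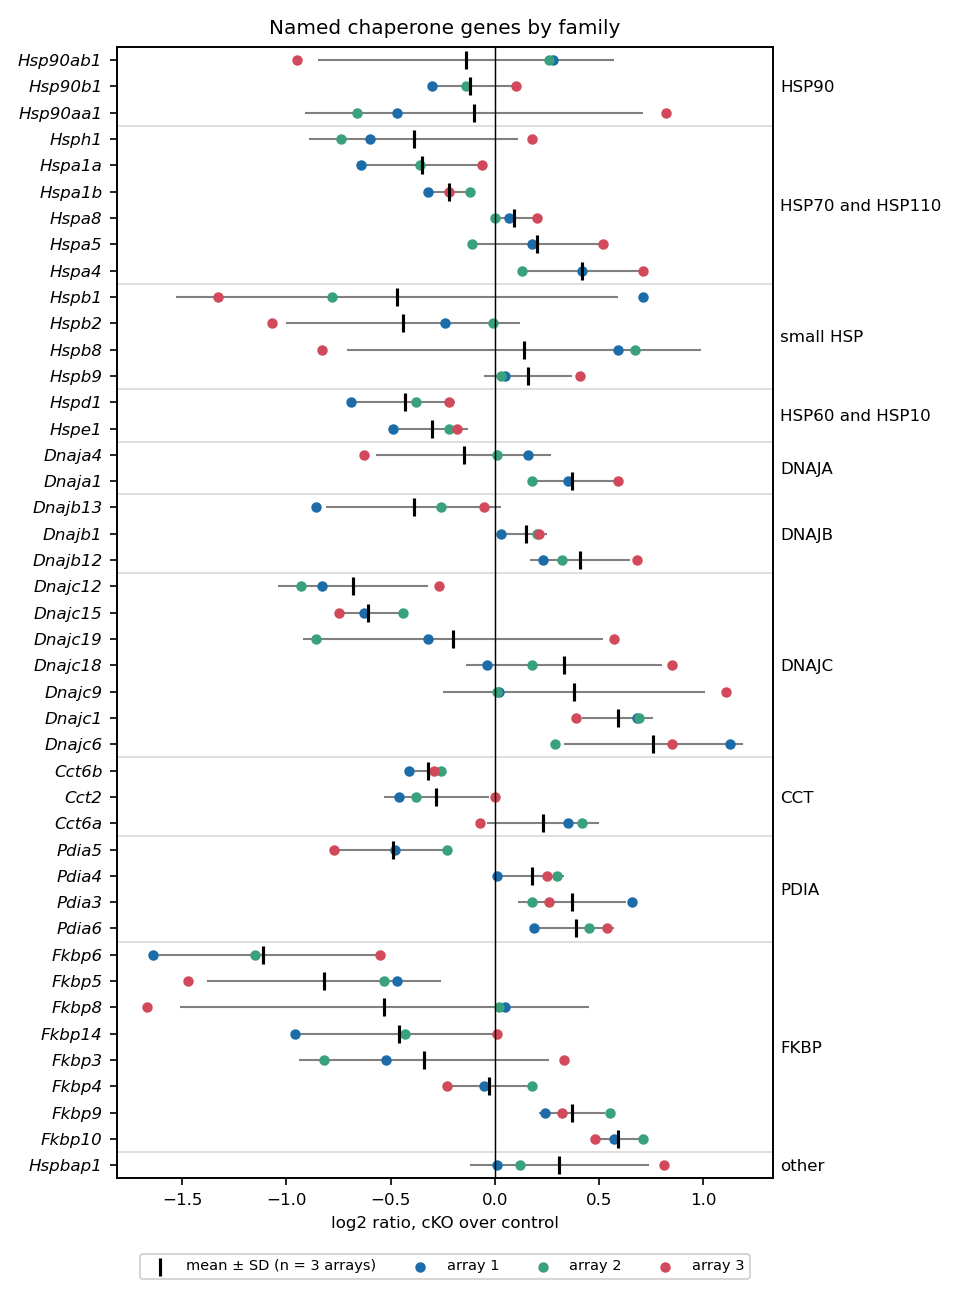
Log2 ratios of cKO over control (horizontal axis) are shown for the 43 chaperone genes chosen by rule, grouped by family: coloured points are single arrays, black ticks the means and grey bars ± SD over 3 arrays. Fkbp6 (-1.11) and Dnajc6 (0.76) have the outermost means, and the widest bar is that of Hspb1 (SD 1.06).

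The PDIA genes, which make and shuffle disulfide bonds, had the highest family median, 0.18 over 5 genes. Pdia6 gave 0.19, 0.45 and 0.54, a mean of 0.39 ± 0.18 (adjusted p = 0.379). Its 3 other probes gave smaller means, 0.16, 0.14 and -0.17. Pdia3 (ERp57), which works with the lectin chaperones on glycoproteins, gave 0.66, 0.18 and 0.26, a mean of 0.37 ± 0.26 (adjusted p = 0.443). Pdia4 gave 0.01, 0.30 and 0.25, a mean of 0.18 ± 0.15. All 3 genes were above 0 on every array. Pdia5 ran the other way at -0.48, -0.23 and -0.77, a mean of -0.49 ± 0.27 (unadjusted p = 0.0281, adjusted p = 0.347). Each of the 5 genes thus kept a single sign over the arrays by the probe used, 3 above and 2 below 0, and none passed the test. With the scanner's own ratios Pdia6 was at -0.03 on array 1 and Pdia3 at -0.01 on array 2. Of all genes, 17.5% were above and 17.8% below 0 on every array.

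ER and cytosolic chaperones were set side by side within each array. The ER list of 18 genes was fixed by name and is not complete: it leaves out, for example, the ER membrane protein Dnajb12. The listed ER genes had a median of 0.02, and the 13 cytosolic HSP70, HSP90 and HSP110 genes a median of -0.08. The ER median minus the cytosolic one was 0.08, -0.01 and 0.17 on arrays 1 to 3, a mean of 0.08 ± 0.09, which is within the spread between arrays. The smallest p that a two-sided exact sign-flip test allows with 3 arrays is 0.25, so no test was made. Among the listed ER genes 6 (33.3%) were above 0 and 3 (16.7%) below 0 on all arrays, against 17.5% and 17.8% of all genes. Taken between the medians of gene means, the difference was 0.10, and its direction turned without array 3 (-0.08), without array 1 (-0.02) and with the scanner's own ratios (-0.04).

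ER stress elements, searched on both strands as CCAAT and CCACG with any 9 bases between them, were found in the windows of 4 chaperone genes, 5% of the 80 with a window, and in 0.137% of all genes. They are shown because all 4 genes belong to the ER folding machinery: Hspa5 (chr2:34772015-34772053, plus strand), Hsp90b1 (chr10:86705523-86705561, minus strand), Pdia6 (chr12:17266481-17266519, plus strand) and Dnajc3 (chr14:118937817-118937855, plus strand), which restrains the ER stress kinase PERK. Capitals mark the element, which in Hsp90b1 reads on the opposite strand. The Hsp90b1 window held another ER stress element, at -212 to -194 from the start site, which is not shown.
Hspa5: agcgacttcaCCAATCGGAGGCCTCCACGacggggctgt
Hsp90b1: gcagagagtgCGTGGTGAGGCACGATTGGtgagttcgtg
Pdia6: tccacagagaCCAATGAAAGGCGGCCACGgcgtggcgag
Dnajc3: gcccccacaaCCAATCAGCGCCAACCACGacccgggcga
The mean ratios of these 4 genes ran from -0.12 to 0.39 with a median of 0.06, 2 above and 2 below 0. Only Pdia6 was above 0 on all arrays.

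The FKBP genes held both of the lowest means of all chaperones, and 10 of their 15 means were below 0, with a median of -0.11. Fkbp6, a germ cell protein needed for meiosis in males, gave -1.64, -1.15 and -0.55. Its mean was -1.11 ± 0.54, or 2.16-fold lower (limma, unadjusted p = 0.00609, adjusted p = 0.253). Its second probe gave -1.02, -0.66 and -0.45, in the same order of arrays. Fkbp6 did not pass the test under any setting tried, and its adjusted p was 0.0823 without array 3. The 10 oocyte markers (10 of 10 tested) had medians of -0.26, -0.31 and 0.16 and means from -0.60 to 0.26. The part of oocytes in the Fkbp6 value was not tested.

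Fkbp5 and Fkbp4 encode the FKBP51 and FKBP52 partners of HSP90, which act in opposite ways on steroid receptors, and Fkbp5 is a well-known target gene of glucocorticoid and progestin receptors. Fkbp5 gave -0.47, -0.53 and -1.47, a mean of -0.82 ± 0.56, or 1.77-fold lower (unadjusted p = 0.0213, adjusted p = 0.327). A second probe gave -0.47, -0.53 and -1.04, and another -0.64, 0.59 and -0.54. All arrays were thus below 0 by the first and second probe, with array 3 lowest, and the last probe was above 0 on array 2. Fkbp4 gave -0.05, 0.18 and -0.23, a mean of -0.03 ± 0.20, with an interval from -0.41 to 0.34.

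The other FKBP genes divided by array or by sign. Fkbp8, which anchors at mitochondria, gave 0.05, 0.02 and -1.67, so that its mean of -0.53 ± 0.98 came from array 3. Fkbp3, a nuclear form, gave -0.52, -0.82 and 0.33, and its second probe had a mean of 0.30. Fkbp14, an ER form, gave -0.96, -0.43 and 0.01, a mean of -0.46 ± 0.48, with a second probe at 0.20. Against these, Fkbp10, which assists collagen folding in the ER, gave 0.57, 0.71 and 0.48, a mean of 0.59 ± 0.11 (unadjusted p = 0.00672, adjusted p = 0.254). Its arrays were close together, and the ER form Fkbp9 was also above 0 throughout, at 0.24, 0.55 and 0.32, a mean of 0.37 ± 0.16 (adjusted p = 0.389). The 6 fibroblast markers (6 of 6 tested) had medians of 0.69, 1.16 and 0.09 on the arrays, with means from -0.28 to 1.02. On all arrays 4 of them (66.7%) were above 0 and 1 (16.7%) below, against 17.5% and 17.8% of all genes. The part of fibroblasts in the Fkbp10 and Fkbp9 values was not tested.

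BMAL1 with its partner CLOCK binds E-boxes, and the letters CACGTG were found in the windows of 11 chaperone genes (13.8% of the 80), against 8.09% of 27025 genes. The windows of 2 of the lowest genes and 1 of the highest are shown. Fkbp6 has a pair of E-boxes (chr5:135350066-135350155, minus strand), Fkbp5 has 1 (chr17:28486301-28486330, minus strand) and so has Dnajc1 (chr2:18392938-18392967, minus strand). Capitals mark CACGTG.
Fkbp6: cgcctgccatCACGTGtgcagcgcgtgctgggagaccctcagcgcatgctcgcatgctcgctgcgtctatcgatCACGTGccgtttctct
Fkbp5: gcaagggccagaCACGTGggcagcggtgaa
Dnajc1: ccagcgctgacaCACGTGcagctgctctac
Hspd1 and Hsph1 hold the letters as well. The 11 genes had means from -1.11 to 0.59 with a median of -0.16, 4 above and 7 below 0, so genes with an E-box in the window lay at both ends of the range. Of the 11, 3 were above 0 on all arrays and 5 below, where 17.5% of all genes were above and 17.8% below. These letters describe the window and show no binding.

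**Figure D4:**
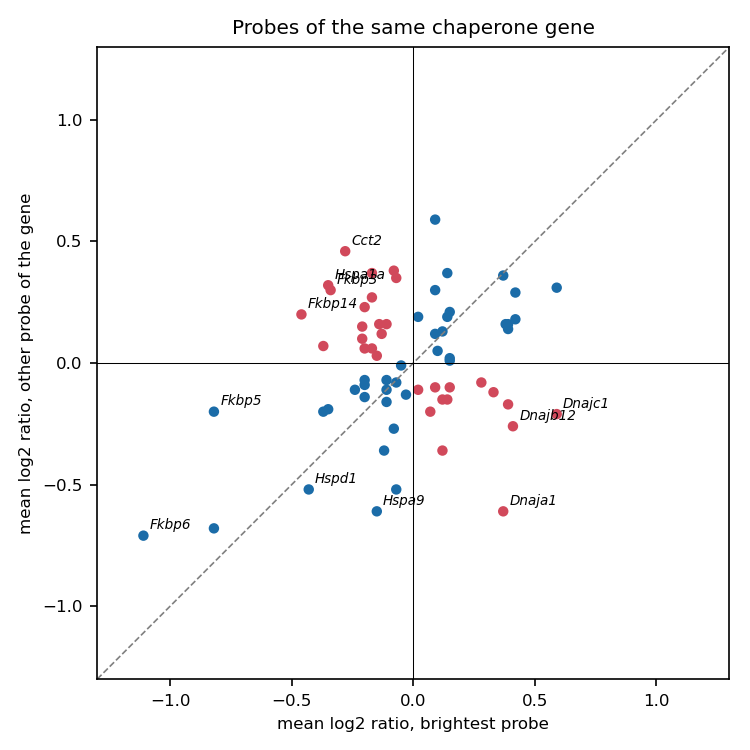
Mean log2 ratios of the brightest probe (horizontal axis) and of each other probe of the same chaperone gene (vertical axis) are plotted for 69 probes of 44 genes; blue points have the same sign and red points opposite signs, and the dashed line marks equal values. Fkbp6 and Hspd1 lie low on both axes, while Dnaja1, Dnajb12, Hspa1a and Cct2 have red points.

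How firmly a single gene can be read depended on its probes. Of 69 further probes of 44 chaperone genes, 38 had the sign of the probe used and 31 the opposite sign, the latter in 26 genes. The median distance between 2 probes of a gene was 0.24, somewhat above the median size of a mean ratio (0.20), and the largest distance was 0.98. The correlation over these probe pairs was 0.267, as a description over probes that share genes and arrays. Fkbp6 and Hspd1, and the first 2 probes of Fkbp5, had further probes of the same sign, whereas Dnajc6, Dnajc12, Dnajc15 and Fkbp10 were read by 1 probe each.

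The partners of the chaperones gave no called gene in any of 5 lists. Of 5 heat shock factor genes only Hsf1 (-0.04 ± 0.53) and its binding protein Hsbp1 (0.28 ± 0.24) were tested, and each had 1 other probe of opposite sign. The 24 HSP70 and HSP90 co-chaperones had a median of 0.07. On all arrays 4 (16.7%) were above and 6 (25%) below 0, beside 17.5% and 17.8% of all genes. Bag1, an exchange factor of HSP70, gave 1.03, 0.65 and -0.03, and the HSP90-bound phosphatase Ppp5c gave -0.35, -0.22 and -0.65, with another probe at a mean of 0.28. Bag6, which guards membrane proteins on their way to the ER, gave -0.35, -0.16 and -0.71, while its other probes had means of 0.20, 0.08 and -0.04. The 9 chaperonin partners had a median of -0.09, with the prefoldin subunits Pfdn1 at -0.56 ± 0.38 and Pfdn2 at 0.48 ± 0.22, and Tcp1, the first CCT subunit, at 0.25 ± 0.22 by 1 probe and -0.10 by another.

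Among the steroid receptors that HSP90 holds ready, 5 of 6 were tested. The other, Pgr, had no probe well above background in a channel on all 3 arrays. The estrogen receptor gene Esr1 gave -0.59, -0.90 and -1.12, a mean of -0.87 ± 0.26 (unadjusted p = 0.00304), below 0 throughout, but its other probe had a mean of -0.04. The glucocorticoid receptor gene Nr3c1 gave 0.66, 0.28 and 0.64, a mean of 0.53 ± 0.22, above 0 throughout by this probe. Its other probes had means of 0.07, 0.26 and -0.12. Nr3c2, the mineralocorticoid receptor gene, gave -0.30, -0.46 and -0.09. None of these passed adjustment over all genes.

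The remaining ER folding and unfolded protein response genes had a median of 0.12 over 32 tested, and 21 of them had means above 0. On all arrays 10 were above and 4 below 0, which is 31.2% and 12.5% of the list beside the 17.5% and 17.8% of all genes. Selenos, a protein of ER-associated degradation, gave 0.40, 0.55 and 0.32, a mean of 0.43 ± 0.12. Ero1b, an oxidase that recharges the disulfide isomerases, gave -0.78, -0.39 and -0.44, a mean of -0.54 ± 0.21, and its other probe had a mean of 0.00. Asns, a target of the stress kinase branch, gave -0.89, -0.73 and 0.33. No gene of the list passed the test, 4 being higher and 2 lower at an unadjusted p of 0.05. Of all genes, 5.9% were higher and 6.42% lower at that threshold.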

How the data were processed

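Per the file headers, the deposited spot and background intensity values come from Agilent Feature Extraction 9.1.3.1, and the deposited log10 ratios are of red over green, so of control over cKO. Any other step by the authors is not given in the sources. Mean signals were corrected by normexp (offset 50) and normalised by loess within arrays in limma 3.58.1 under R 4.3.3. Control spots had weight 0, and 13, 4 and 0 outlier spots were left out. The scanner's own ratios (minus the log10 ratio, on the log2 scale) were an alternative. Probes well above background in a channel on all 3 arrays were kept. The median spot signal was 1.8 to 2.8 times its local background, which with 3 arrays limits the precision.

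Each gene was read by its brightest kept probe. Spots were named through RefSeq genes of GRCm38.p6, 26788 by accession, 6252 by symbol and 1810 by synonym; 8529 kept the file's name. Dnajc3a and Dnajb10 are given as Dnajc3 and Dnajb2. A further 10 genes, of which 8 were tested with means from -0.45 to 0.29, meet the symbol rule only by current names and were left out.

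Ratios were tested against 0 with lmFit and eBayes, by a two-sided test, and p-values were adjusted by Benjamini-Hochberg over all 17858 genes, after a check on simulated data. Members, families and partner lists were chosen with earlier results of these data known. Named genes are the 12 highest and 12 lowest, the extremes and brightest of each family, the 5 of largest SD, and a set of well-known chaperones; up to 3 genes came from each partner list. Promoter windows, where 1 was given, come from RefSeq (80 of 94 genes). Families were described and not tested. Genotype labels of arrays 2 and 3 number the Cre after the array, and these arrays were grouped by title and design text.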

Additional observations from a re-analysis of the deposited data

How the results depend on the processing

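No chaperone gene passed the threshold under any of the 11 different alternatives (the slide of 2 arrays alone is the fit without array 1), and the adjusted p of the lowest ran from 0.0823 to 0.789. At an unadjusted p of 0.05 by limma, the scanner's ratios gave 4.6% of the chaperone genes against 6.01% of all. The chaperone share was also the smaller without offset (9.2% against 10.7%) and without array 1 or array 2. It was the larger in the other settings, as without array 3 (33.3% against 26.8%). Over all genes, higher and lower calls numbered 27 and 26 with the scanner's ratios, 29 and 30 without offset and 26 and 22 with the slide as a block. They numbered 0 and 1 with median centring and within the slide of 2 arrays, and 0 and 0 with scaled arrays or without the filter on dim probes, where limma gave 2735, 770, 2303 and 3182 genes at an unadjusted p of 0.05. Leaving out 1 array gave 0 to 11 higher and 0 to 9 lower calls: 0 and 1 without array 1, 11 and 9 without array 2, and none by limma without array 3, where 4786 genes had an unadjusted p under 0.05.

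Median centring in place of loess moved the median of all genes to 0.12. Under it the chaperone median was 0.12, and medians were 0.10 for HSP70 and HSP110, 0.12 for DNAJA, 0.17 for DNAJB, 0.23 for DNAJC, 0.08 for CCT, 0.38 for PDIA and 0.12 for FKBP, so the chaperone median equalled that of all genes. The ER minus cytosolic difference became 0.23, co-chaperones 0.25, steroid receptors -0.04 and ER folding genes 0.28. The scanner's ratios gave -0.18 for DNAJA, -0.02 for FKBP, -0.04 for ER minus cytosolic, -0.33 for steroid receptors and 0.07 for ER folding genes. Within the slide of 2 arrays HSP70 and HSP110 had 0.10, CCT 0.07 and ER minus cytosolic -0.02. The mean over probes gave -0.02 for FKBP and 0.06 for ER folding genes, and an offset of 0 gave -0.30 for steroid receptors.

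Leaving out 1 array gave medians from -0.05 to 0.10 for HSP70 and HSP110, -0.07 to 0.02 for DNAJA, -0.12 to 0.07 for CCT, -0.08 to 0.15 for ER minus cytosolic and 0.09 to 0.15 for ER folding genes. Of 473 recomputed values of the named chaperones, 448 stayed within 1 SD and 25 moved further. Of the 43 named genes, 11 moved with the scanner's ratios, 7 with median centring and 7 with the mean over probes. Leaving out 1 array, or taking the slide as a block, cannot move a mean by 1 SD. Changing the filter on dim probes left these means as they were. Values from those settings could not count as moved, so the 448 do not measure stability. The sign of the mean turned for 17 of 87 chaperones with the scanner's ratios, 17 with median centring and 10 to 12 without 1 array. The cause was not tested. No further paired analysis was possible because each ratio is already the paired difference between the 2 pools of 1 array.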
